A study of Mus musculus with 11 samples.

Results

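Regulators that sense sterols or set their uptake were followed through YAP induction in mouse liver: Srebf1, Srebf2, Insig1, Insig2, Scap, Stard4, Mylip and Nr1h3. These genes were chosen by name for these roles and make up 8 of the 20893 gene rows of the table, and all 8 passed the filter on low values that left 14244 genes for testing. RNA of 11 homogenized C57BL/6 livers was sequenced, 1 library for each labelled sample, namely 4 controls, 4 from mice induced for 3 days and 3 from mice induced for 7 days. The controls are labelled ROSA26-rtTA-IRES-EGFP and WT and had doxycycline in the food for 7 days, and the induced mice carried ROSA26-rtTA-IRES-EGFP together with tetYAP and had doxycycline for 3 or 7 days. All 11 mice thus carried the rtTA-EGFP allele and received the drug, and no control group had 3 days of doxycycline. In this model the rtTA allele is opened by a Cre recombinase under the albumin promoter, so that a constitutively active YAP transgene is switched on in hepatocytes and in any other cell that has used that promoter. The labels give neither age nor sex, and nothing in them says that the livers came from separate litters or experiments, so p-values measure the spread between these libraries.

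Cells sense cholesterol in the membrane of the endoplasmic reticulum. There SCAP holds the SREBP transcription factors, and when sterols are plentiful the INSIG proteins retain the SCAP-SREBP complex, whereas sterol-poor membranes let it travel to the Golgi, where SREBP is cut and its active part goes to the nucleus to switch on sterol and fatty acid synthesis and lipoprotein uptake. Oxysterols act through a second arm, the nuclear receptor LXR, which raises sterol efflux genes and Mylip, a ligase that marks lipoprotein receptors for breakdown. Insig1 and Stard4 are themselves textbook targets of SREBP.

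Depth ranged from 1251396 to 5495697 reads on genes in controls, from 2660233 to 3681416 at 3 days and from 5312486 to 5941357 at 7 days, so the 7-day libraries were also the deep ones. Values are eRPKM, exonic reads per kilobase scaled to the size of each library by the authors, and changes are log2 differences of eRPKM + 0.5, which understate the change of low genes. Reads on Yap1 did not pass the test at 7 days (log2 fold change 0.03), and whether transgene reads were counted there is not given in the sources used here, whereas the YAP target genes Cyr61, Ctgf and Ankrd1 were higher by 3.27, 3.49 and 3.88. All 8 hepatocyte markers were detected, with a summed level from 1574 up to 4387 eRPKM in controls and between 1280 and 1426 eRPKM at 7 days. In 7 libraries Xist, the RNA of the inactive X chromosome, exceeded the Y-linked gene Ddx3y, and in 4 the reverse held: controls and 3-day livers were split 2 and 2, whereas all 3 livers at 7 days were in the first class. The description of 3-day livers 1 and 4 and of 7-day liver 2 ends in MF, whose meaning is not given in the sources used here.

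The start-site windows of Insig1, Scap and Insig2 are shown because 2 of these genes fell at 7 days and the third is the paralog of Insig1. The sequences are from RefSeq on GRCm38.p6, run from 250 bases before to 50 after an annotated start, and are written 5′ to 3′ on the strand of the gene. Capitals mark CCAAT on either strand, the box bound by NF-Y, and CACGTG, the E-box letters. The windows are chr5:28071162-28071461, plus strand, for Insig1, chr9:110333038-110333337, plus strand, for Scap and chr1:121332540-121332839, minus strand, for the most upstream start of Insig2.
Insig1: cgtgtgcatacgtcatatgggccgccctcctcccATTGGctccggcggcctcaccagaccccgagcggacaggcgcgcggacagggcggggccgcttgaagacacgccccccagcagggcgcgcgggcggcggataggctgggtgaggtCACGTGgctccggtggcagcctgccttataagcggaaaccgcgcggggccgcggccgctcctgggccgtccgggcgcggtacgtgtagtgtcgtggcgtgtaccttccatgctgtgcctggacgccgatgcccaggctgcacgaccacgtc
Scap: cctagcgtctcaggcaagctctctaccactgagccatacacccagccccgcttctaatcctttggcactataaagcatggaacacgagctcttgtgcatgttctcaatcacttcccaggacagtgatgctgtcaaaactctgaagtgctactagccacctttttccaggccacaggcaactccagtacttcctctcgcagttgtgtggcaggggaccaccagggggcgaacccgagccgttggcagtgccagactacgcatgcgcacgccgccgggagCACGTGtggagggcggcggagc
Insig2: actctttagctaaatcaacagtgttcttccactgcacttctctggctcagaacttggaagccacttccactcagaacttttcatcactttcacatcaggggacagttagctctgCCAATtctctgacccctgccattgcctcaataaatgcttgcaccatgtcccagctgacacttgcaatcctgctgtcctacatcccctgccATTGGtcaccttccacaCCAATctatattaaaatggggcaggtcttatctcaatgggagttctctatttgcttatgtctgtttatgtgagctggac

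Of the 8 genes, 7 had an entry in the promoter table, with 13 windows in all. CCAAT was present in 6 of the 13 windows, those of Insig1, Insig2, Mylip, Srebf1 and Srebf2, and in 37.4% of all 32851 windows of the table. CACGTG was present in 3 windows, those of Insig1 and Scap, and in 7.15% of all windows. Windows 1 and 2 of Scap overlap and hold the same CACGTG, so that site is counted in each of them. TCACNCCAC, one form of the sterol regulatory element, was in none of the 13 windows and in 1.24% of all, and GGAATG, letters bound by the YAP partner TEAD, was in none of the 13 and in 14.7% of all. Both strands were searched, the motifs do not overlap in the windows shown, and a match of letters is not a binding site.

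At 7 days of induction Insig1, Stard4 and Scap were lower than in control livers, none of the 8 genes was higher, and the other 5 did not pass the test. A gene was called where limma gave it an adjusted p (Benjamini-Hochberg) under 0.01 and its log2 fold change was past 0.5 in either direction. By this rule 3 of the 8 genes were lower and 0 higher, against 5.77% lower and 18.0% higher among all genes tested. The median log2 fold change was -0.57 over the 8 genes and 0.26 over all genes. In 4 of the 8 genes, Insig1, Insig2, Scap and Stard4, all 7-day livers lay below all controls, which held for 13.3% of all genes. In none of the 8 did all 7-day livers lie above all controls, which held for 36.7%. Among markers of other cell states at 7 days, 2 of 8 hepatocyte genes were lower (median -0.85). Most of these hepatocyte genes had a high level, and over all genes with a mean of at least 100 eRPKM the median was -0.62. Higher were 5 of 7 macrophage genes (median 1.49), 6 of 6 genes of dividing cells (3.59) and 2 of 6 endothelial genes (0.60). So were 1 of 6 biliary (1.02), 1 of 7 lymphocyte (0.21) and 0 of 6 stellate genes (-0.23). All 6 biliary genes had a positive change with an unadjusted limma p under 0.05. The part of these markers in the falls was not tested. In whole liver, fewer cells of a type, less RNA per cell and the shift with level and depth described below cannot be told apart.

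**Figure D1:**
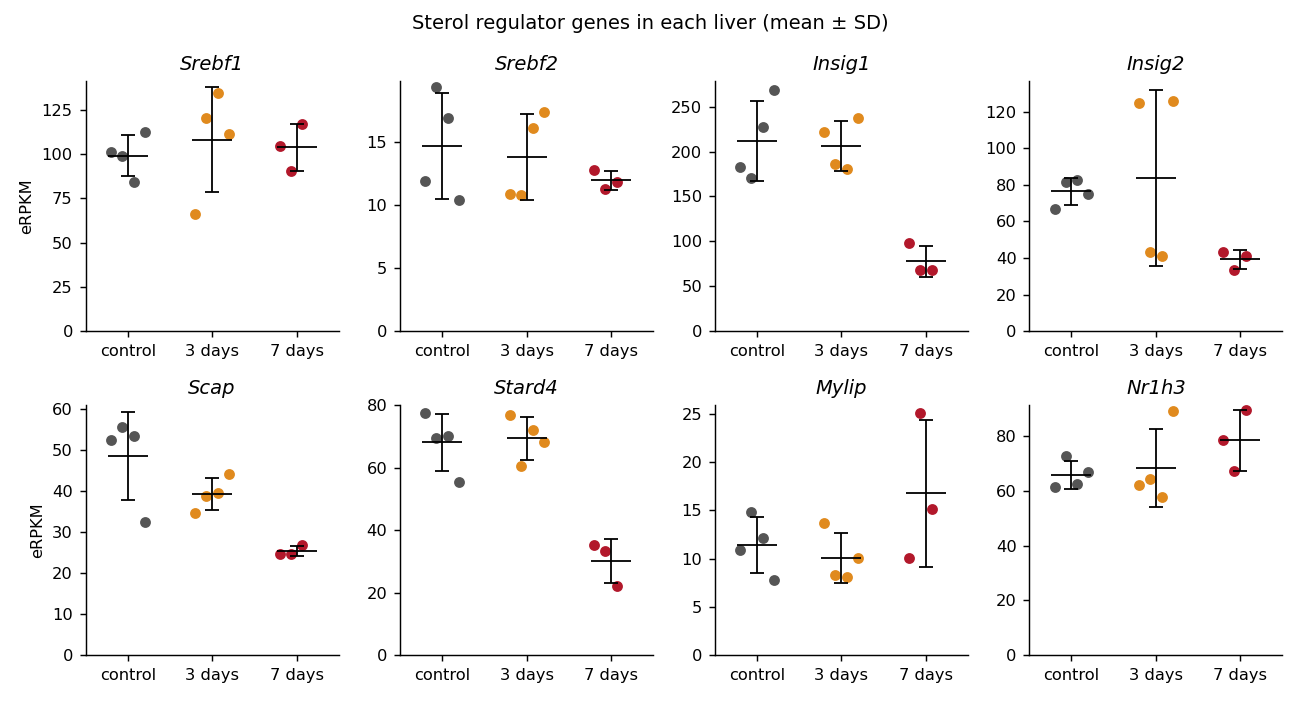
Level of each of the 8 genes in eRPKM (vertical axis, from 0) in the 4 control livers, the 4 livers at 3 days and the 3 livers at 7 days of YAP induction, with 1 point per liver and the group mean ± SD in black. Insig1 has a mean of 212 in controls and 77.9 at 7 days, and the 3-day livers of Insig2 form an upper and a lower pair.

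Levels in control liver spanned a wide range. Insig1 had the highest mean, 212 eRPKM ± 44.6 (SD, n = 4), followed by Srebf1 with 99.2 ± 11.6, Insig2 with 76.6 ± 7.39, Stard4 with 68.1 ± 9.17, Nr1h3 with 65.9 ± 5.17, Scap with 48.6 ± 10.8, Srebf2 with 14.7 ± 4.21 and Mylip with 11.4 ± 2.92. The neighbours Insig2 and Stard4, Stard4 and Nr1h3, and Srebf2 and Mylip overlapped between control livers, and the other neighbours in this order did not. The deepest evidence lay under Srebf1 and Insig1, with at least 623 and 915 reads in every liver, and the thinnest under Mylip and Srebf2, with as few as 30 and 75 reads in a liver.

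Insig1 encodes the INSIG protein that retains SCAP and also presents HMG-CoA reductase for breakdown (mm9 chr5:28397952-28405201, plus strand). Its level was 182, 171, 227 and 268 eRPKM in control livers 1 to 4, 221, 186, 180 and 238 at 3 days, and 97.8, 68.2 and 67.8 at 7 days. The 7-day livers lay far below all 8 others, which were interleaved. The fall at 7 days was 2.71-fold (log2 fold change -1.44 ± 0.20 SE, limma adjusted p = 0.000141; exact two-sided permutation p = 0.0286, the smallest that 4 against 3 livers allows). It was the largest change among the 8 genes on the deposited scale, whereas Stard4 changed more after quantile normalization (-1.26 against -1.03) and with log2 depth as a covariate (-1.32 against -1.12).

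Insig2 encodes the second INSIG protein and lies on the minus strand of mm9 chr1:123200930-123229166. It measured 66.7, 81.8, 82.7 and 75.2 eRPKM in controls, 125, 43.1, 41.0 and 126 at 3 days, and 43.6, 33.6 and 41.0 at 7 days. All 7-day livers were below all controls, but the 3-day livers split into an upper pair above every control and a lower pair at the level of the 7-day livers. The difference at 7 days was 1.94-fold (log2 fold change -0.95 ± 0.36 SE, 95% interval -1.74 to -0.17) and did not pass the test in the fit of all 3 groups (limma adjusted p = 0.0538; exact permutation p = 0.0286). In the fit of control and 7-day livers only, which leaves out the scattered 3-day livers, the same difference had a limma adjusted p of 0.000585.

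The upper pair of 3-day livers, 1 and 4, are those whose description ends in MF, and the lower pair, 2 and 3, lack the suffix. At 7 days liver 2 carries the suffix and had the lowest Insig2 level of its group, 33.6 eRPKM. With the suffix as a covariate the log2 fold change of Insig2 at 7 days was -1.22 and passed (limma adjusted p = 0.00760). The covariate was a single term for all groups, and no control carries the suffix. This fit thus assumes a shared shift, whereas livers with the suffix were the highest at 3 days and the lowest at 7 days. The suffix did not follow the Xist class. Of the livers that carry it, 3-day liver 1 had 1.58 eRPKM of Xist and 106 of Ddx3y. In 3-day liver 4 these were 92.2 and 0.0566, and in 7-day liver 2 they were 99.7 and 0.245. Whether the suffix stands for a treatment or a run was not tested.

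The log2 ratio of Insig1 to Insig2 was 1.45 ± 0.31 (SD, n = 4) in controls and 0.97 ± 0.22 (n = 3) at 7 days. It ranged from 1.06 to 1.83 in controls and from 0.73 to 1.17 at 7 days, so the groups overlapped.

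Scap encodes the escort and sterol sensor that carries SREBP out of the endoplasmic reticulum (mm9 chr9:110235792-110287450, plus strand). Control livers 1 to 3 had 52.5, 55.7 and 53.6 eRPKM and control liver 4, the library with the fewest reads, had 32.6. The 3-day livers had 34.7, 38.9, 39.6 and 44.3 eRPKM, and the 7-day livers 24.7, 24.7 and 26.8. The 7-day livers were the lowest of all 11, and the 3-day livers lay between them and the 3 higher controls.

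Scap fell by 1.86-fold at 7 days (log2 fold change -0.89 ± 0.18 SE, limma adjusted p = 0.00219; exact permutation p = 0.0571). Without control liver 4 the log2 fold change was -1.07 (limma adjusted p = 0.000124). The call was lost without 7-day liver 1 (log2 fold change -0.88, limma adjusted p = 0.0116) and without 7-day liver 2 (-0.87, adjusted p = 0.0116). Exons of Scap overlap those of 5830462I19Rik, and because reads were counted without strand the share of the overlapping gene is not known.

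Srebf2 encodes SREBP-2, the factor of the cholesterol synthesis programme (mm9 chr15:81977696-82035806, plus strand). It measured 11.9, 19.4, 16.9 and 10.5 eRPKM in controls, 10.9, 10.9, 16.1 and 17.4 at 3 days and 12.8, 11.3 and 11.8 at 7 days. The controls and the 3-day livers each formed an upper and a lower pair, and the 7-day livers sat with the lower pairs. The log2 fold change at 7 days was -0.24 (95% interval -0.76 to 0.28, limma adjusted p = 0.453).

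Srebf1 encodes SREBP-1, whose 1c form drives fatty acid synthesis (mm9 chr11:60012591-60036083, minus strand, with exons that overlap those of Rai1). It had 101, 99.2, 84.1 and 112 eRPKM in controls, 66.1, 120, 135 and 112 at 3 days, and 104, 90.5 and 117 at 7 days. The groups overlapped, and the widest scatter was at 3 days, where liver 1 was the lowest of the 11. The log2 fold change at 7 days was 0.07 with a 95% interval of -0.41 to 0.54 (limma adjusted p = 0.836). The log2 ratio of Srebf1 to Srebf2 was 2.79 ± 0.55 (SD, n = 4) in controls and 3.11 ± 0.17 (n = 3) at 7 days.

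Stard4 encodes a soluble carrier that moves cholesterol between membranes inside the cell (mm9 chr18:33359009-33373516, minus strand). Its level was 77.4, 69.5, 70.1 and 55.5 eRPKM in controls, 77.1, 60.6, 72.0 and 68.1 at 3 days, and 35.2, 33.5 and 22.2 at 7 days. Controls and 3-day livers overlapped over most of their range, and every 7-day liver lay below it. Stard4 fell by 2.26-fold at 7 days (log2 fold change -1.18 ± 0.18 SE, limma adjusted p = 0.000294; exact permutation p = 0.0286).

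Mylip encodes the ligase, also called IDOL, that sends lipoprotein receptors to the lysosome (mm9 chr13:45485111-45507388, plus strand). It had 10.8, 14.8, 12.2 and 7.80 eRPKM in controls, 13.7, 8.25, 8.13 and 10.1 at 3 days, and 10.1, 25.1 and 15.2 at 7 days. Liver 2 at 7 days was the highest of the 11 and liver 1 of the same group lay within the controls. The log2 fold change at 7 days was 0.48 with a 95% interval of -0.17 to 1.13 (limma adjusted p = 0.232), and 0.15 without liver 2.

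Nr1h3 encodes LXR alpha, the oxysterol receptor that is abundant in liver and in macrophages (mm9 chr2:91024218-91042991, minus strand, with exons that overlap those of Gm13783). It had 61.5, 72.8, 62.4 and 67.1 eRPKM in controls, 62.2, 64.4, 57.9 and 89.3 at 3 days, and 78.7, 67.3 and 89.6 at 7 days. The ranges overlapped, with the highest values in 3-day liver 4 and 7-day liver 3. The log2 fold change at 7 days was 0.24 with a 95% interval of -0.12 to 0.61 (limma adjusted p = 0.273). Macrophage markers rose in the same livers: 5 of the 7 tested passed, with summed levels between 233 and 472 eRPKM in controls, between 299 and 539 at 3 days and between 832 and 922 at 7 days. Their part in the levels of Nr1h3 and Mylip was not tested.

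At 3 days none of the 8 genes passed the test against controls by limma or by limma-voom on recovered reads, and 0 had an unadjusted p under 0.05. Their log2 fold changes ran from -0.27 for Scap to 0.08 for Srebf1, and limma adjusted p-values from 0.546 to 0.970. Among all genes 0.0421% were called higher and 0.0% lower at 3 days by limma, and 1718 genes had an unadjusted p under 0.05. The YAP targets did not pass at 3 days either. Cyr61 changed by 1.99 (limma adjusted p = 0.0117), Ctgf by 1.41 (adjusted p = 0.0833) and Ankrd1 by -0.94 (adjusted p = 0.110). For Insig1 the 95% interval of the change at 3 days was -0.42 to 0.37 and for Stard4 -0.33 to 0.39, which do not reach the changes estimated at 7 days. For Insig2 it was -0.80 to 0.65, as wide as its scatter.

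The same genes were then compared between 7 and 3 days, where the 3-day livers replace the controls. Insig1 was lower at 7 days by a log2 fold change of -1.41 (limma adjusted p = 0.000208) and Stard4 by -1.21 (adjusted p = 0.000317). By this count 2 of the 8 genes were lower and 0 higher, against 5.31% lower and 14.0% higher among all genes. Scap was below all 3-day livers in 3 of 3 livers, with a log2 fold change of -0.62 that did not pass (limma adjusted p = 0.0201; exact permutation p = 0.0286). The share of all genes with all 7-day livers below all 3-day livers was not counted. Insig2 differed by -0.88 (adjusted p = 0.0730) and Mylip by 0.65 (adjusted p = 0.109), and neither passed. The comparisons share the 7-day livers and are not independent of each other.

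**Figure D2:**
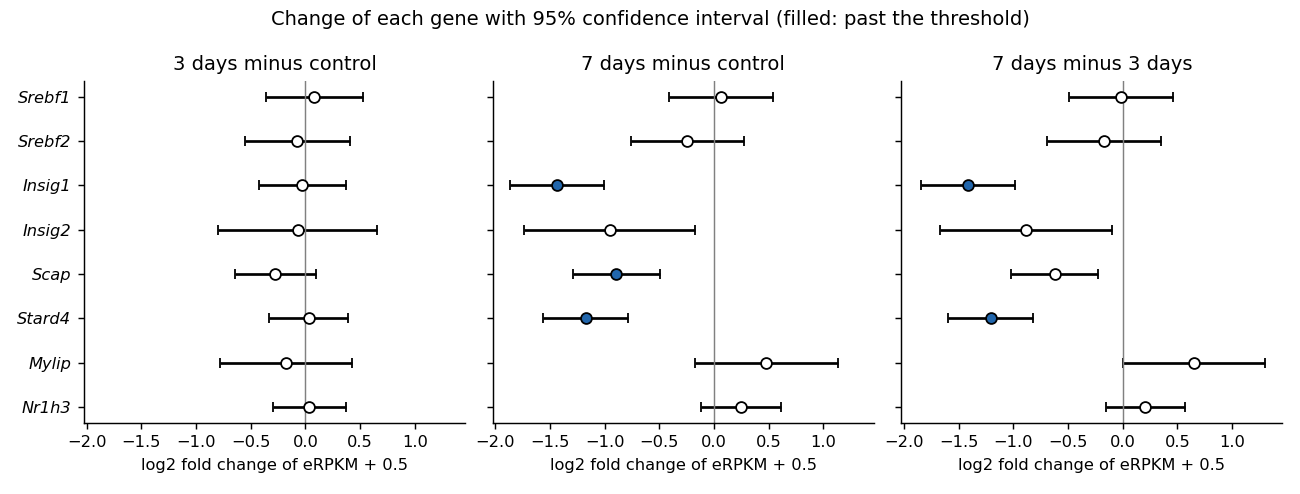
Log2 fold change of eRPKM + 0.5 for the 8 genes (horizontal axis) with the 95% confidence interval from limma, in 3 comparisons side by side: 3 days minus control, 7 days minus control and 7 days minus 3 days. Filled points passed the threshold: 0 genes at 3 days, Insig1, Scap and Stard4 at 7 days against control, and Insig1 and Stard4 at 7 against 3 days.

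Depth and level moved with the groups. Among genes with a mean of at least 100 eRPKM (604 genes) the median log2 fold change at 7 days was -0.62, and in the 1045 genes from 50 to 100 it was -0.21. In the 5376 genes from 10 to 50 it was 0.21, and in the 6547 genes from 0.5 to 10 it was 0.50. Control liver 4, the shallowest, differed from control liver 2, the deepest control, by a median of 0.80 in the first class. Insig1 and Srebf1 belong to the first class. In control liver 4 Insig1 was 0.65 and Srebf1 0.18 higher (log2) than in control liver 2. Against control liver 2 alone, whose 5495697 reads lie within the 7-day range of depth, the 7-day mean differed by -1.15 for Insig1, -1.21 for Stard4, -1.12 for Scap and -1.05 for Insig2, with no test. With log2 depth as a covariate Insig1 changed by -1.12 (limma adjusted p = 0.00124), Stard4 by -1.32 (0.00144) and Scap by -1.23 (0.000458).

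**Figure D3:**
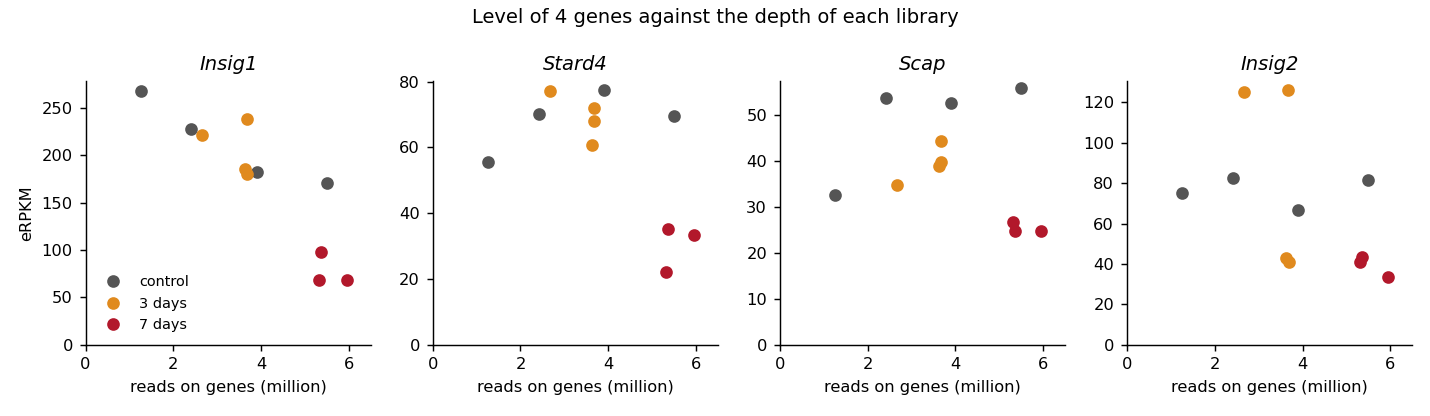
Level in eRPKM (vertical axis, from 0) of Insig1, Stard4, Scap and Insig2 against the reads on genes of each library (axis scaled by 1e6), with controls in grey, 3-day livers in orange and 7-day livers in red. The deepest control (5495697 reads) stands above the 3 livers at 7 days in all 4 genes.

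Scaling between libraries moved all genes. The median log2 fold change of all genes at 7 days was 0.26 as deposited, 0.03 with median-ratio size factors and -0.08 after quantile normalization, and the genes called higher and lower were 2561 and 822, 1951 and 1254, and 1857 and 1821, respectively. Relative to that median the change of Insig1 was -1.70, -1.73 and -0.95 under the 3 scalings, that of Stard4 -1.43, -1.47 and -1.18, and that of Scap -1.15, -1.18 and -1.04. These 3 genes were called lower in each. Srebf1 was -0.19, -0.23 and 0.54 relative to the median and Nr1h3 -0.01, -0.05 and 0.56, so that no direction can be given for either. Srebf2 lay below the median in each, by -0.50, -0.53 and -0.65, and was called lower only after quantile normalization (limma adjusted p = 0.00921).

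The upper and lower pairs of Srebf2 followed the Xist class. Among the 8 control and 3-day livers the 4 libraries with more Xist had 16.1 to 19.4 eRPKM and the other 4 had 10.5 to 11.9, with no overlap (log2 difference 0.64 ± 0.16 SE; exact permutation p = 0.0286; limma adjusted p = 0.182). This comparison was chosen after the values were seen. By the limma threshold the difference did not pass, whereas 0.393% of all genes did. The share of all genes without overlap between the classes was not counted, so the separation cannot be called particular to Srebf2. For the other 7 genes the classes overlapped. Within the libraries with more Xist, Srebf2 had means of 18.2 eRPKM in 2 controls, 16.8 in 2 livers at 3 days and 12.0 in the 3 livers at 7 days, which ranged from 11.3 to 12.8 and lay below the other 4. The log2 fold change at 7 days in these libraries was -0.58 (limma adjusted p = 0.0380), and with log2 Xist as a covariate it was -0.49 (adjusted p = 0.0544), neither past the threshold. In the libraries with more Xist Insig1, Stard4 and Scap still passed at 7 days, with log2 fold changes of -1.35, -1.22 and -1.09.

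**Figure D4:**
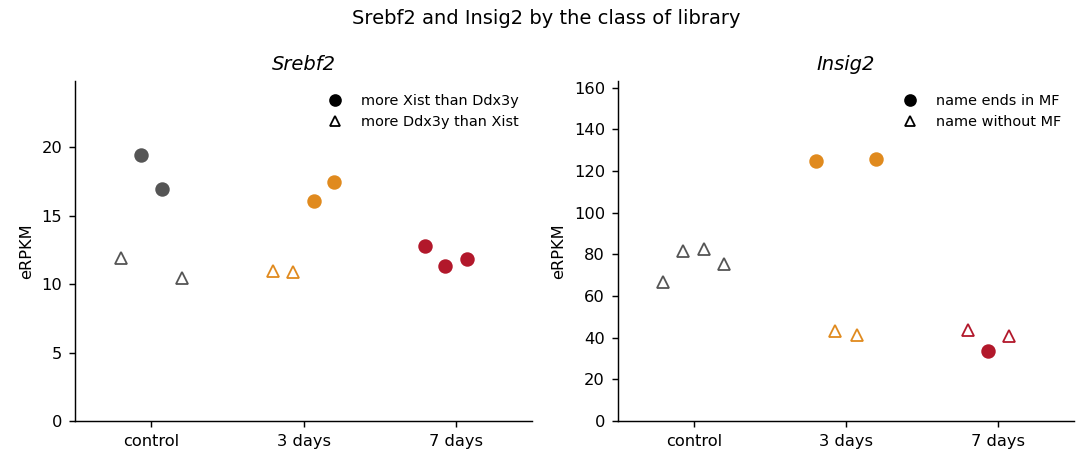
Level in eRPKM (vertical axis, from 0) of Srebf2, with filled circles for libraries with more Xist than Ddx3y and open triangles for the reverse, and of Insig2, with filled circles for livers whose description ends in MF and open triangles for the rest. In controls and at 3 days the circles of Srebf2 (16.1 to 19.4) lie above its triangles (10.5 to 11.9), and at 3 days the circles of Insig2 (125 and 126) lie above its triangles (41.0 and 43.1).

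Genes around the 8 regulators were described from 6 lists by their counts. Among all genes 18.0% were called higher and 5.77% lower at 7 days, with a median of 0.26. That median depended on level: it was 0.50 from 0.5 to 10 eRPKM and 0.21 from 10 to 50. From 50 to 100 eRPKM it was -0.21, and at 100 or more it was -0.62. The lists hold genes of several of these classes, so their counts and medians are to be read against both. Of 19 tested enzymes of cholesterol synthesis 11 were lower and 0 higher at 7 days, with a median log2 fold change of -1.11, and 7 were lower without 7-day liver 2. The largest falls were those of Msmo1 (-2.68) and Cyp51 (-2.54), which remove methyl groups from the sterol ring, Idi1 (-2.34), the isopentenyl diphosphate isomerase, and Tm7sf2 (-2.32), a sterol reductase. Hmgcs1, which makes the precursor of mevalonate, was listed near 0 in all livers and was not tested, and its listed value cannot be read as absence of expression. Of 9 genes of SREBP cleavage and INSIG-linked breakdown, among them the proteases Mbtps1 and Mbtps2, none was called in either direction by limma or by limma-voom on recovered reads (median 0.21, with 2 at an unadjusted p under 0.05), and 1 was lower after quantile normalization.

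Of 14 uptake and traffic genes tested 5 were higher and 1 lower at 7 days, with a median of 0.23 beside 0.26 over all genes. The count of 5 moved with the libraries and the scaling, and it was also 5 after quantile normalization. It was 1 when 7-day liver 1, 2 or 3 was left out. The count was also 1 with log2 depth or log2 Xist as a covariate and in libraries with more Xist. It was 2 without control liver 3 or 4, with size factors or with the replicate block. Without 7-day liver 1, 2 or 3 the genes called higher among all genes also fell, from 2561 to 1721, 1671 and 1588. The 1 lower gene was lost without 7-day liver 2 and in libraries above 3000000 reads, where 1 was higher. Soat1, which esterifies cholesterol and is abundant in macrophages, was higher by 2.36 and the sterol carriers Stard3 and Osbp by 0.70 each.

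On the LXR arm, none of 8 partner genes passed at 7 days by limma or by limma-voom (median 0.31, with 4 at an unadjusted p under 0.05). The count higher was 1 with a pseudocount of 1, with a filter at a mean of 1 eRPKM and without 3-day liver 1 or 4. It was 2 in the fit of the 2 groups only, and 3 at a limma adjusted p under 0.05 with any fold change. Nr1h2, which encodes LXR beta, missed the threshold with a log2 fold change of 0.61 (limma adjusted p = 0.0101). Of 10 LXR targets 3 were higher and 2 lower, with a median of 0.00 beside 0.26 over all genes, and 1 was lower without 7-day liver 2 or in libraries with more Xist: the sterol exporter Abcg1 (2.49), the phospholipid transfer protein Pltp (2.33) and Arl4c (1.84) rose, whereas Abcg8 (-1.83), a bile sterol exporter, and the desaturase Scd1 (-1.54) fell. The macrophage markers Cd14 (3.38), Cd68 (2.61) and Csf1r (1.81) were higher in the same livers, and their part in the levels of Soat1, Abcg1, Pltp and Arl4c was not tested. Of 15 lipogenic targets of SREBP-1c 8 were lower and 0 higher (median -1.22), led by the acetyl-CoA carboxylase Acacb (-2.99), the malic enzyme Me1 (-2.33), the desaturase Fads2 (-2.07) and the elongase Elovl5 (-1.57). Srebf1 itself had a log2 fold change of 0.07 in the same livers. Scd1 is in both of the last lists, and at 3 days no gene of the 6 lists was called.

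**Figure D5:**
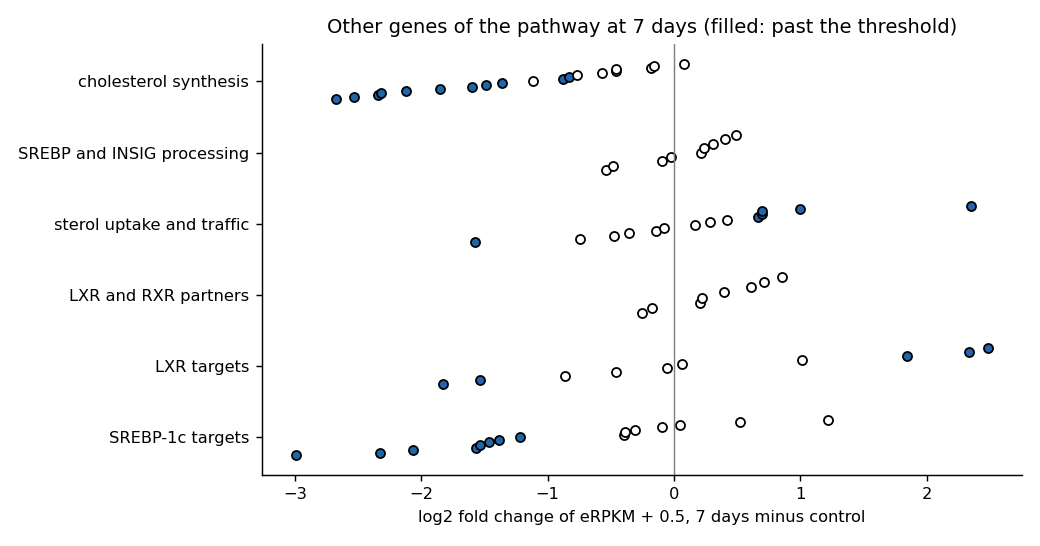
Log2 fold change of eRPKM + 0.5 at 7 days minus control (horizontal axis) for the tested genes of 6 lists around the 8 regulators, 1 point per gene, filled where the gene passed the threshold. In cholesterol synthesis 11 of 19 genes and in SREBP-1c targets 8 of 15 are filled, all on the lower side.

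The genes whose levels most resembled those of each regulator over the 11 livers were listed by Pearson's r of log2(eRPKM + 0.5), as a description without a test, since all points share library depth and group. For Insig1 they were Ugt3a2 (r = 0.994) and Cd1d1 (0.990), for Stard4 Serpina4-ps1 (0.964) and Arhgap42 (0.961), and for Scap Acot12 (0.960) and Sult1c2 (0.958). For Insig2 they were Fam25c (0.967) and Tomm7 (0.965), and for Srebf2 Sult2a5 (0.972) and Eci3 (0.957). Srebf1 went with Neil1 (0.904) and Slc26a1 (0.875), Mylip with Rhbdl3 (0.941) and Cd200r1 (0.917), and Nr1h3 with Zfp330 (0.887) and Mogs (0.860). Some of these genes were near the floor. Rhbdl3 had means of 0.485, 0.253 and 0.701 eRPKM in controls, at 3 days and at 7 days. At 7 days Eci3 had 0.0852, Serpina4-ps1 0.301 and Sult2a5 0.394.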

How the data were processed

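RNA of whole livers was made into TruSeq RNA v2 libraries and sequenced as read pairs. The authors masked low-quality bases, aligned reads without strand to mm9 with TopHat2 2.0.8, and counted them with featureCounts 1.4.5-p1, per the labels. Gene annotation and duplicate handling are not given in the sources used here. The deposited values are eRPKM, a form of RPKM scaled within each library by the authors. The table also holds the authors' DESeq2 mean, log2 fold change and adjusted p-value for 7 days against control, which were not used. Reads were recovered from the steps of the eRPKM: 100% of 177553 values were whole within 0.1 of a read. They served for depth and for 1 alternative, and cover counting error only.

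Groups came from the labels. The filter kept genes that reached 0.5 eRPKM in 3 or more libraries. They were fitted with limma 3.58.1 under R 4.3.3 (eBayes with trend, 3 groups in 1 fit), and 24 exact two-sided permutation tests, not adjusted, compared means (Python 3.11.15, scipy 1.17.1). The limma step was tested on simulated data. The members, the lists and the alternatives were chosen with earlier results of these data known. Named from each list were called genes, at most 4 in each direction by size, and for each member the 2 most correlated genes; others are named for their role, and some genes of the lists are counted but not reported here. Alternatives were 28 settings of pseudocount, filter, scaling, samples, variance model, covariates and threshold. Positions are from GENCODE M1 on mm9.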

Additional observations from a re-analysis of the deposited data

Results flagged for a closer look

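Scap in control livers: the gap between control liver 4 (32.6 eRPKM) and the nearest other control took up 0.860 of the whole range of the group, above Dixon's 95% limit for 4 samples. Control liver 4 is the library with the fewest reads (1251396). Of 16 sets of 4 livers examined this was the one past the limit, and chance passes about 1 set in 20.

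The level was lower at 7 than at 3 days in 2 of the 8 genes and higher in 0, by the test across all genes. Among all genes 5.31% were lower and 14.0% higher. The groups also differed in days of doxycycline, in depth and in Xist class, which cannot be told apart from the longer induction. The step was -1.41 (log2) for Insig1 and -1.21 for Stard4, and all 3 livers at 7 days were below all 4 at 3 days in both. The share of all genes separated in this way was not counted. Against controls, all 7-day livers were below in 13.3% of all genes. For Scap the same step was -0.62 and did not pass the threshold.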

How the results depend on the processing

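Insig1 and Stard4 passed in all 28 alternatives at 7 days against control (log2 fold change -1.71 to -1.03 and -1.44 to -0.97) and in all 28 at 7 against 3 days. Scap passed at 7 days in 26 of 28 and at 7 against 3 days in 8 of 28. Insig2 passed at 7 days in 2 of 28, the suffix covariate and the 2 groups only. The genes higher at 7 against 3 days were 0, but 1 after quantile normalization (Nr1h3, 0.57). The cause was not tested. Of the counts over the 6 lists 73 moved by more than 1.5 times and 935 did not.

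Small differences changed sign. At 3 days Insig1 was 0.18 in libraries above 3000000 reads (chosen after seeing the data), 0.0702 in libraries with more Xist, 0.0558 with the depth covariate and 0.0455 after quantile normalization; Stard4 was -0.13 in the deep libraries, -0.0874 after quantile normalization, -0.0583 with the suffix covariate and -0.00547 with the depth covariate; and Nr1h3 was -0.0825 after quantile normalization. With size factors Nr1h3 was -0.0232 and Srebf1 -0.20 at 7 days, and Nr1h3 -0.0357 at 7 against 3 days, where Srebf1 was 0.43 after quantile normalization. Leaving out each liver gave at 3 days -0.12 to 0.0933 for Insig1, -0.33 to 0.20 for Insig2, -0.0978 to 0.11 for Nr1h3, -0.0377 to 0.30 for Srebf1, -0.22 to 0.0725 for Srebf2 and -0.0619 to 0.0971 for Stard4, and for Srebf1 -0.0227 to 0.16 at 7 days and -0.24 to 0.10 at 7 against 3 days.

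With the replicate number as a block, 3 of the 8 genes were lower at 7 days and 2 at 7 against 3 days, the same counts as without it, and Srebf1 was 0.0303 at 7 against 3 days. Same-numbered livers share only a number: the correlations of their deviations ran from -0.22 to 0.27. Depth limits Mylip and Srebf2 most, with as few as 30 and 75 reads in a liver.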
